A study of Mus musculus with 8 samples.

Results

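A set of 10 genes of lipid droplet breakdown and of the response to the fatty acids it releases were followed in septic and control mouse muscle, taken from the count table by gene symbol. They are Pnpla2, Lipe, Abhd5, G0s2, Plin2, Plin3, Plin4, Plin5, Angptl4 and Ucp3, which make up 10 of the 25655 gene rows. All 10 had enough reads to be tested, among 9810 genes tested in all. The tissue was gastrocnemius, a fast-fibre muscle of the calf, from male wild-type (WT) mice at day 4. The septic group, 3 libraries, had received cecal slurry, a suspension of gut contents that causes infection with many bacterial species at once. The control group, 5 libraries, had received 10% glycerol, and the labels name no allele, transgene or further agent in either group. Whether each library is a separate animal is not stated, so p-values cover only the spread among these samples, which may be technical. The comparison asks which transcripts of the muscle differ at day 4 of sepsis.

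Muscle fibres store fatty acids as triglyceride in lipid droplets, which are coated by perilipins. The triglyceride lipase ATGL, encoded by Pnpla2, takes off the first fatty acid, hormone-sensitive lipase, encoded by Lipe, the next, and a monoacylglycerol lipase the last. ABHD5 switches ATGL on and G0S2 holds it back, while fatty acids freed by ATGL serve both as fuel and as ligands of the PPAR nuclear receptors, whose known targets include several perilipin genes, Angptl4, Ucp3 and the kinase gene Pdk4.

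The libraries held 3337851 to 3765726 reads in sepsis and 3086277 to 4016329 reads in controls. A single read corresponded to 0.210 to 0.266 CPM in septic libraries and to 0.278 to 0.362 CPM in control libraries, where CPM are reads scaled to a common library size by trimmed means (TMM). Reads of mitochondrially encoded genes made up 12.6% to 16.9% of septic libraries and 21.7% to 26.7% of control libraries. The 3 septic libraries also differed more from each other than the controls did, with a chi-square per degree of freedom of 11.0 to 26.3 between septic pairs and of 2.04 to 6.86 between control pairs. The fibre genes that mark this tissue were abundant in every library, at a summed level of 78456 to 109239 CPM in sepsis and 171881 to 204684 CPM in controls, and 11 of 13 of them were lower in sepsis. Because the tissue was sequenced in bulk, fewer cells of a type and less RNA per cell cannot be told apart. The library method reads 1 tag near the 3′ end of each transcript, so CPM was not divided by transcript length.

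Of the 10 genes, 5 were higher in septic muscle, 1 was lower and 4 did not pass the threshold, an adjusted p of 0.05 in edgeR's quasi-likelihood test, with p-values adjusted by Benjamini-Hochberg over all 9810 genes. The 5 higher genes were the lipase gene Pnpla2, the perilipin genes Plin2, Plin4 and Plin5, and Angptl4, and the lower gene was the lipase inhibitor gene G0s2. A large part of the transcriptome differed: 50.4% of all genes tested passed the same threshold. Of all genes tested, 25.2% were higher and 25.2% lower, so 6 of 10 is near the background. The median log2 fold change was 1.03 over the 10 genes and 0.01 over all genes tested. In 6 of the 10 genes the septic and control libraries did not overlap, 5 with sepsis higher and 1 with sepsis lower, against 47.5% of all genes tested, 23.1% with sepsis higher and 24.3% with sepsis lower. When libraries were scaled by their totals alone, the median of all genes shifted to 0.43, 43.4% of all genes were higher and 14.1% lower, and Lipe and Plin3 joined the higher genes.

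**Figure D1:**
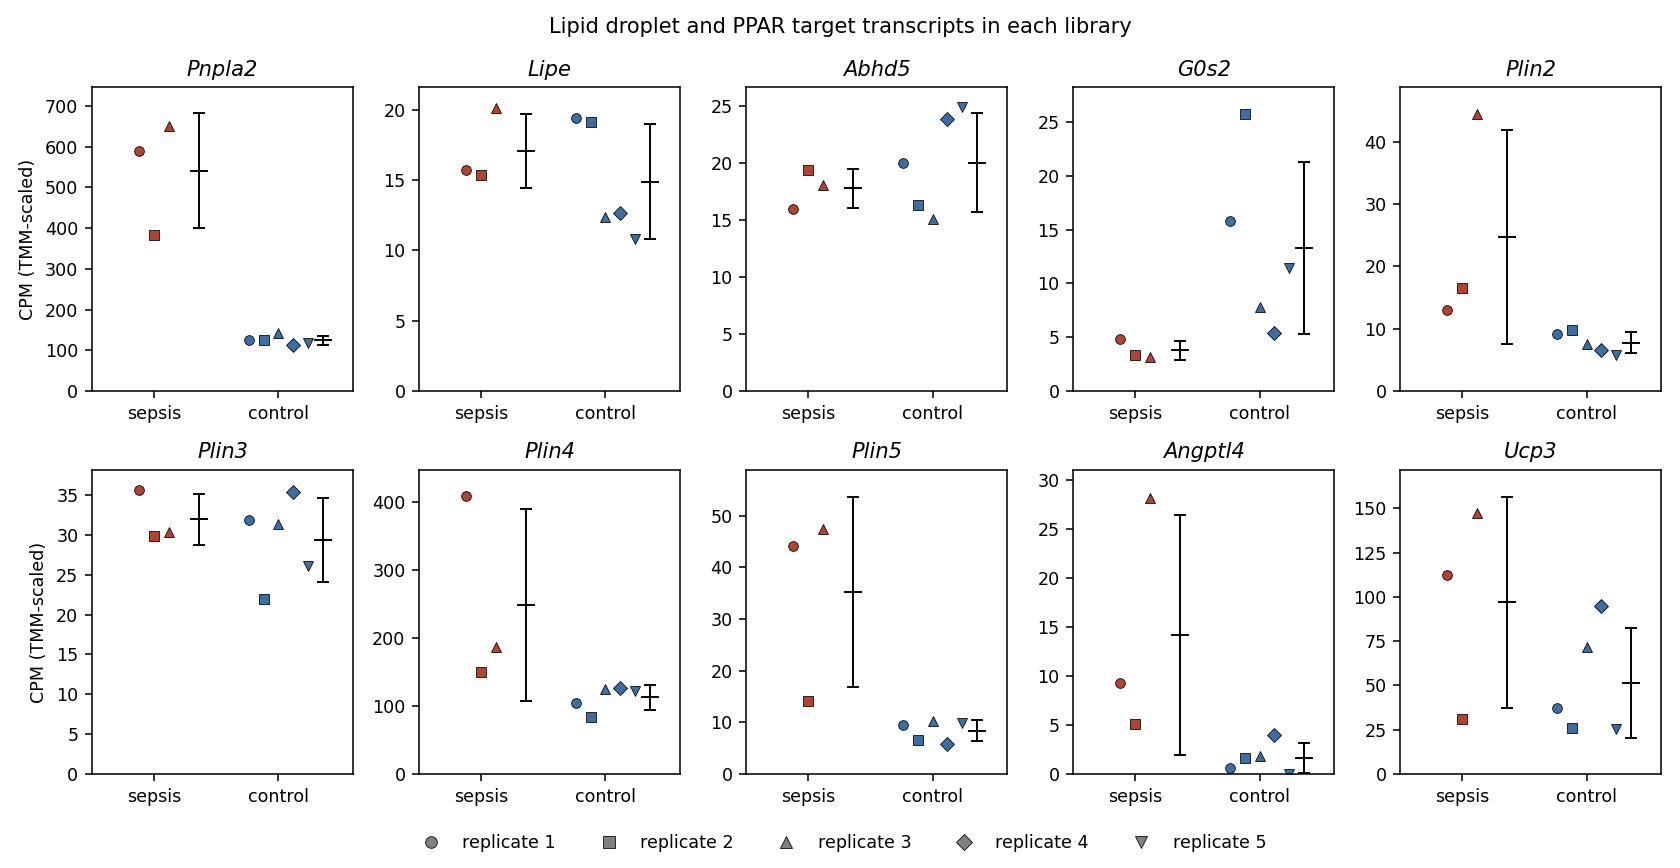
Level of each of the 10 transcripts in CPM, scaled by TMM, with 1 point per library, sepsis in red at the left and control in blue at the right of each panel; the cross bar and whiskers give the mean and SD (n = 3 and n = 5). All 3 septic libraries lie above all 5 control libraries for Pnpla2, Plin2, Plin4, Plin5 and Angptl4 and below them for G0s2, and sepsis replicate 3 is the highest point for Plin2 and Angptl4.

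The lipase gene Pnpla2 had the highest mean level of the 10 transcripts in either group, although Plin4 exceeded it in control replicates 4 and 5. Pnpla2 also had the difference largest relative to its error. Its promoter is shown beside those of Plin2, Plin5 and Ucp3, which carry letters of the element that PPAR and its partner RXR bind. Each sequence holds the 250 bases before the RefSeq start site on GRCm38.p6, written 5′ to 3′ along the gene. Capitals mark matches to AGGTCANAGGTCA with at most 2 of its 12 fixed bases differing, or exact matches to the 6-base core AGGTCA, on either strand.
Pnpla2 promoter, chr7:141454938-141455187, plus strand: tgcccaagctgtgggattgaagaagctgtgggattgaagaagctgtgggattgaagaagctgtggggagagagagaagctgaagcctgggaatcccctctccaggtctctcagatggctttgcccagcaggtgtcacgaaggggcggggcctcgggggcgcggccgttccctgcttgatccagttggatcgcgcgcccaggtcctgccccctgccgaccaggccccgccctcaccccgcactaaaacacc
Plin2 promoter, chr4:86670060-86670309, minus strand: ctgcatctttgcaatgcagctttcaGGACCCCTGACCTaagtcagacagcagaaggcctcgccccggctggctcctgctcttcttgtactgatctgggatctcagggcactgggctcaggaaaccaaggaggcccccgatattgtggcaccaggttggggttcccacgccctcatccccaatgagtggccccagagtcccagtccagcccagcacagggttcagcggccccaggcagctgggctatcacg
Plin5 promoter, chr17:56117549-56117798, minus strand: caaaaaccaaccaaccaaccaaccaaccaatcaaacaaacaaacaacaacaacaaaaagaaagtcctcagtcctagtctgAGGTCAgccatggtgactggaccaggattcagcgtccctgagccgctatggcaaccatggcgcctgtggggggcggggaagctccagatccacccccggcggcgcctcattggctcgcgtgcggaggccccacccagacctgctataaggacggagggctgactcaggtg
Ucp3 promoter, chr7:100472741-100472990, plus strand: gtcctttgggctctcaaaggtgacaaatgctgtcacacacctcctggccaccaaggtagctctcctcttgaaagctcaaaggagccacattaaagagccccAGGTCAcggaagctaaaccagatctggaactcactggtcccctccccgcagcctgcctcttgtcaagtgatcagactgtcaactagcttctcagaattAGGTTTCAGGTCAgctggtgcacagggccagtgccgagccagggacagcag
The 9 genes of the 10 with an entry have 11 promoters, as Lipe and Plin5 have 2 each, and only the first of Plin5 is shown. A match to the longer element, within the 2 differing bases allowed, was found in 2 of the 11, those of Plin2 and Ucp3. The same held for 1063 of 32851 promoters of the same length, or 3.24%. Neither match was exact, as each differed at 2 of the 12 fixed bases. In Plin2 the matching letters were GGACCCCTGACCT, which match the element on the opposite strand, at positions -225 to -213, counted in bases from the start. Ucp3 carried AGGTTTCAGGTCA at -51 to -39 and a further core match at -149 to -144. An exact core was present in 4 of the 11, from Abhd5, Plin2, Plin5 (the first promoter, not the second) and Ucp3, and in 14.0% of all promoters. Each match to the longer element contains a core match. Of the 2 genes with such an inexact match to the longer element, Plin2 passed the test and Ucp3 did not. Pnpla2, which passed, showed no match in this window. A match of letters describes the sequence only, and binding was not measured.

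Pnpla2 (ENSMUSG00000025509) stood at 590.5, 382 and 651 CPM in septic replicates 1 to 3, against 126, 126, 142, 112 and 118 CPM in control replicates 1 to 5. The lowest septic library, replicate 2, was still well above the highest control, and the controls lay close together. The level averaged 541 ± 141 CPM in sepsis and 125 ± 11.2 CPM in controls (SD, n = 3 and n = 5). That is a log2 fold change of 2.12 (SE 0.15), or 4.34-fold higher in sepsis, with adjusted p = 2.68e-07 in edgeR's quasi-likelihood test. Among all genes tested, 213 had a larger rise.

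Lipe (ENSMUSG00000003123), the gene of hormone-sensitive lipase, which cleaves diacylglycerol, did not follow Pnpla2. It stood at 15.7, 15.3 and 20.1 CPM in sepsis and at 19.4, 19.1, 12.3, 12.7 and 10.8 CPM in controls. The groups overlapped, with control replicates 1 and 2 above septic replicates 1 and 2. The log2 fold change was 0.19 (SE 0.22), with adjusted p = 0.499 in edgeR's quasi-likelihood test, and it was 0.60 with adjusted p = 0.0353 when libraries were scaled by their totals alone. Adipocyte transcripts, another source of Lipe, were present in every library: the adipokine gene Adipoq had 13.0, 19.5 and 23.5 CPM in sepsis and 12.3 to 29.8 CPM in controls, with a log2 fold change of 0.07 and adjusted p = 0.853 in edgeR's test. Of 11 adipocyte markers tested among 12, 1 was higher in sepsis, Fabp4, 2 were lower, Car3 and Thrsp, and 8 did not pass. Their summed level was 988 to 1507 CPM in sepsis and 2833 to 2923 CPM in controls, of which Car3, which muscle fibres also express, made up 522 to 583 CPM in sepsis and 2323 to 2588 CPM in controls. Ucp1, which defines brown adipocytes, had no read in any library.

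The regulators of ATGL differed from each other. Abhd5 (ENSMUSG00000032540), the coactivator gene, stood at 16.0, 19.3 and 18.0 CPM in sepsis and at 20.0, 16.3, 15.1, 23.9 and 24.9 CPM in controls. Every septic value lay within the range of the controls. Its log2 fold change was -0.16 (SE 0.19), with adjusted p = 0.504 in edgeR's quasi-likelihood test, and its sign depended on the scaling, since library totals alone gave 0.26.

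G0s2 (ENSMUSG00000009633), whose product binds ATGL and blocks it, went the other way. It was the only one of the 10 to pass the test as lower in sepsis, with 4.79, 3.36 and 3.20 CPM in septic libraries against 15.8, 25.7, 7.83, 5.42 and 11.5 CPM in control libraries. The groups did not overlap, but control replicate 4 came close to septic replicate 1, and control replicate 2 stood far above the other controls. These levels rest on 18, 16 and 14 reads in sepsis and on 57, 82, 26, 15 and 36 reads in controls. The average was 3.78 ± 0.875 CPM in sepsis and 13.3 ± 8.01 CPM in controls (SD, n = 3 and n = 5), 3.54-fold lower in sepsis, at a log2 fold change of -1.82 (SE 0.48) and adjusted p = 0.00887 in edgeR's quasi-likelihood test. The call was lost without sepsis replicate 3, at -1.72 and adjusted p = 0.0504, and with limma voom and sample quality weights, at -1.52 and adjusted p = 0.193. Over the alternatives run, the adjusted p ranged between 0.000309 and 0.193. Among the adipocyte markers, Adipoq and Thrsp were highest in control replicate 2, as G0s2 was, at 29.8 and 22.6 CPM. Thrsp was also lower in sepsis. Plin1, Cidec, Retn, Cfd, Fabp4, Adig and Pparg were highest among the controls in replicate 1, Car3 in replicate 3, and Lep and Pck1 in replicate 5. The part of adipocytes in the G0s2 difference was not tested. On the reference annotation G0s2 overlaps Lamb3 on the opposite strand, which had 1 to 5 reads in septic libraries and 0 to 5 in control libraries.

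Within a library, the transcripts that act beside ATGL were scarcer relative to Pnpla2 in sepsis, a measure that does not depend on library scaling. Per 1000 Pnpla2 reads, septic libraries held 8.11, 8.79 and 4.91 G0s2 reads, against 126, 205.0, 55.2, 48.4 and 97.3 in control libraries. The coactivator transcript Abhd5 came to 27.0, 50.5 and 27.7 reads per 1000 Pnpla2 reads in sepsis and to 159, 130.0, 106, 213 and 211 in controls. For Lipe the same measure gave 26.6, 40.1 and 30.9 in sepsis and 155, 152.5, 87.0, 113 and 91.9 in controls. None of these ratios overlapped between the groups. The difference in mean log2 ratio, with 0.5 added to each count, was -3.69 for G0s2, -2.23 for Abhd5 and -1.86 for Lipe. Each had p = 0.0357 in an exact two-sided permutation test using all 56 choices of 3 of the 8 libraries, the smallest p this test can give, and adjusted p = 0.0357 over the 3 ratios. As the ratios share the Pnpla2 count in their denominator, they are not independent of each other or of the rise in Pnpla2.

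**Figure D2:**
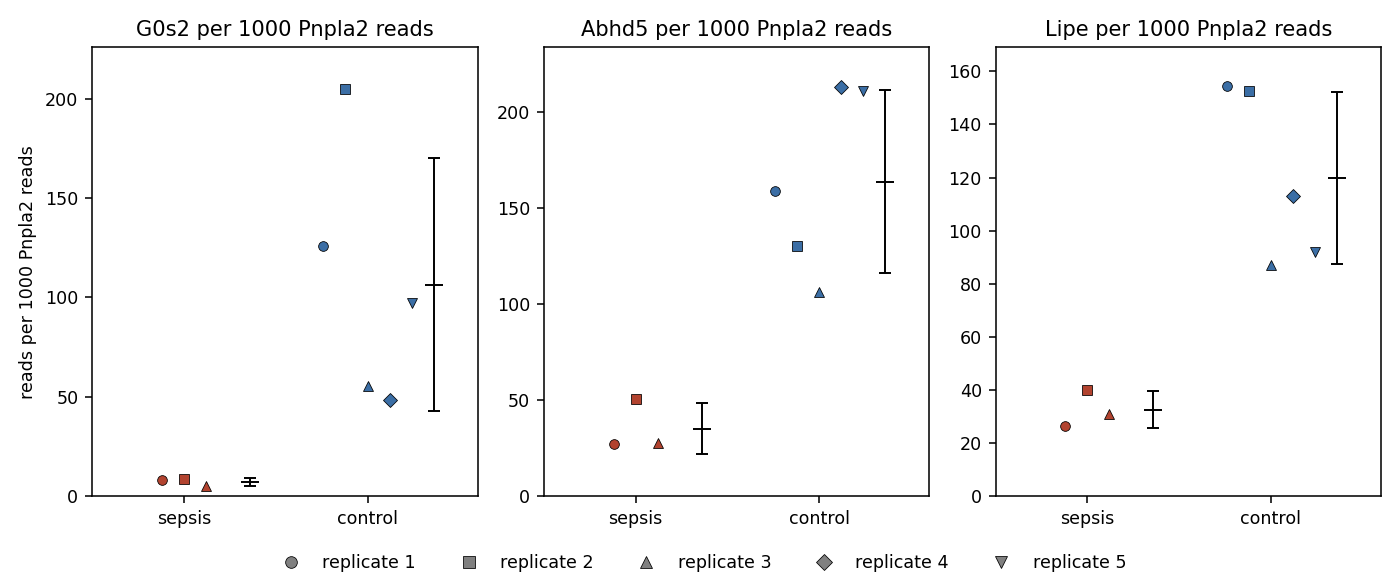
Reads of G0s2, Abhd5 and Lipe per 1000 Pnpla2 reads in the same library, 1 point per library with the mean and SD, sepsis at the left and control at the right of each panel. The septic libraries sit between 4.91 and 8.79 for G0s2, between 27.0 and 50.5 for Abhd5 and between 26.6 and 40.1 for Lipe, below all 5 controls in each panel.

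Among the droplet coat genes, Plin2, Plin4 and Plin5 rose and Plin3 did not pass the test. Plin2 (ENSMUSG00000028494) encodes perilipin 2, which coats droplets in many cell types, fibres and macrophages included. It stood at 13.0, 16.6 and 44.5 CPM in sepsis and at 9.16, 9.73, 7.53, 6.51 and 5.74 CPM in controls. All septic libraries were above all controls, although septic replicates 1 and 2 were much nearer to them than replicate 3. The level averaged 24.7 ± 17.2 CPM in sepsis and 7.73 ± 1.70 CPM in controls (SD, n = 3 and n = 5), a log2 fold change of 1.67 (SE 0.38), 3.18-fold higher, with adjusted p = 0.00412 in edgeR's quasi-likelihood test. Without sepsis replicate 3 it was 0.93 and still past the threshold. Macrophage markers were also higher in sepsis, in 6 of 8 tested among 12, with a summed level of 314, 548 and 329 CPM in septic replicates 1 to 3 and 81.4 to 211 CPM in controls. Their sum was highest in septic replicate 2 and Plin2 in replicate 3. Cd68, the macrophage marker with the smallest p, was highest in replicate 3, at 99.7, 79.2 and 150.0 CPM in septic replicates 1 to 3. The other markers on the list were highest in replicate 2. The part of macrophages in the Plin2 difference was not tested.

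Plin5 (ENSMUSG00000011305) encodes perilipin 5, the perilipin of oxidative tissues, which binds ATGL and ABHD5 and ties droplets to mitochondria. It stood at 44.1, 14.1 and 47.5 CPM in sepsis and at 9.44, 6.59, 10.2, 5.79 and 9.88 CPM in controls. Septic replicates 1 and 3 were far above the controls and replicate 2 only a little. With averages of 35.2 ± 18.4 CPM in sepsis and 8.39 ± 2.05 CPM in controls (SD, n = 3 and n = 5), it was 4.14-fold higher, at a log2 fold change of 2.05 (SE 0.37) and adjusted p = 0.000940 in edgeR's quasi-likelihood test. Only 237 of the 9810 genes had a larger rise.

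Plin4 (ENSMUSG00000002831), the gene of perilipin 4, a coat protein of fat and muscle, was the most abundant perilipin transcript in every library. Its level was 409, 149 and 187 CPM in sepsis and 104, 83.5, 125, 127 and 122 CPM in controls. Septic replicate 1 stood apart above all other libraries, and replicate 2 exceeded the highest control by a small margin. The average was 248 ± 140 CPM in sepsis and 112 ± 18.5 CPM in controls (SD, n = 3 and n = 5), a log2 fold change of 1.14 (SE 0.30), 2.21-fold higher, with adjusted p = 0.0124 in edgeR's quasi-likelihood test. Without sepsis replicate 1 the log2 fold change was 0.58. The gene overlaps Hdgfl2 on the opposite strand of the reference annotation, with 90 to 154 Hdgfl2 reads in septic libraries and 53 to 71 in control libraries, and the strand setting of the counting was not given in the sources used here.

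Plin3 (ENSMUSG00000024197) encodes perilipin 3, a widely expressed coat protein that moves between cytosol and droplet. It stood at 35.6, 29.8 and 30.4 CPM in sepsis and at 31.9, 22.0, 31.3, 35.4 and 26.1 CPM in controls. The groups overlapped almost fully. The log2 fold change was 0.12 (SE 0.17), with adjusted p = 0.569 in edgeR's quasi-likelihood test, and library totals alone gave 0.54 with adjusted p = 0.0124.

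The perilipin reads together came to 502, 209.7 and 309 CPM in septic replicates 1 to 3 and to 155, 122, 174, 174 and 164 CPM in controls, so every septic library exceeded every control. The makeup of this pool differed as well. Plin3 held 7.10%, 14.2% and 9.83% of the perilipin reads in sepsis, against 20.6%, 18.0%, 18.0%, 20.3% and 15.9% in controls, with no overlap. The level of Plin3 itself did not pass the test, while the pool around it was larger. Plin5 held 8.80%, 6.71% and 15.4% in sepsis and 6.10%, 5.41%, 5.88%, 3.32% and 6.02% in controls, again with no overlap. Septic replicate 2 and control replicate 1 were close, however, on only 67 and 34 Plin5 reads. The mean share of Plin4 was alike in both groups, at 71.0% ± 10.6 in sepsis and 71.0% ± 2.98 in controls (SD, n = 3 and n = 5), but the septic libraries spread over 81.5%, 71.1% and 60.4%. Plin2 held 2.60%, 7.92% and 14.4% in sepsis and 3.50% to 7.99% in controls, so its share overlapped between the groups. The shares were described and not tested, and they rest on 998 to 1886 perilipin reads per septic library and 388 to 578 per control library.

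**Figure D3:**
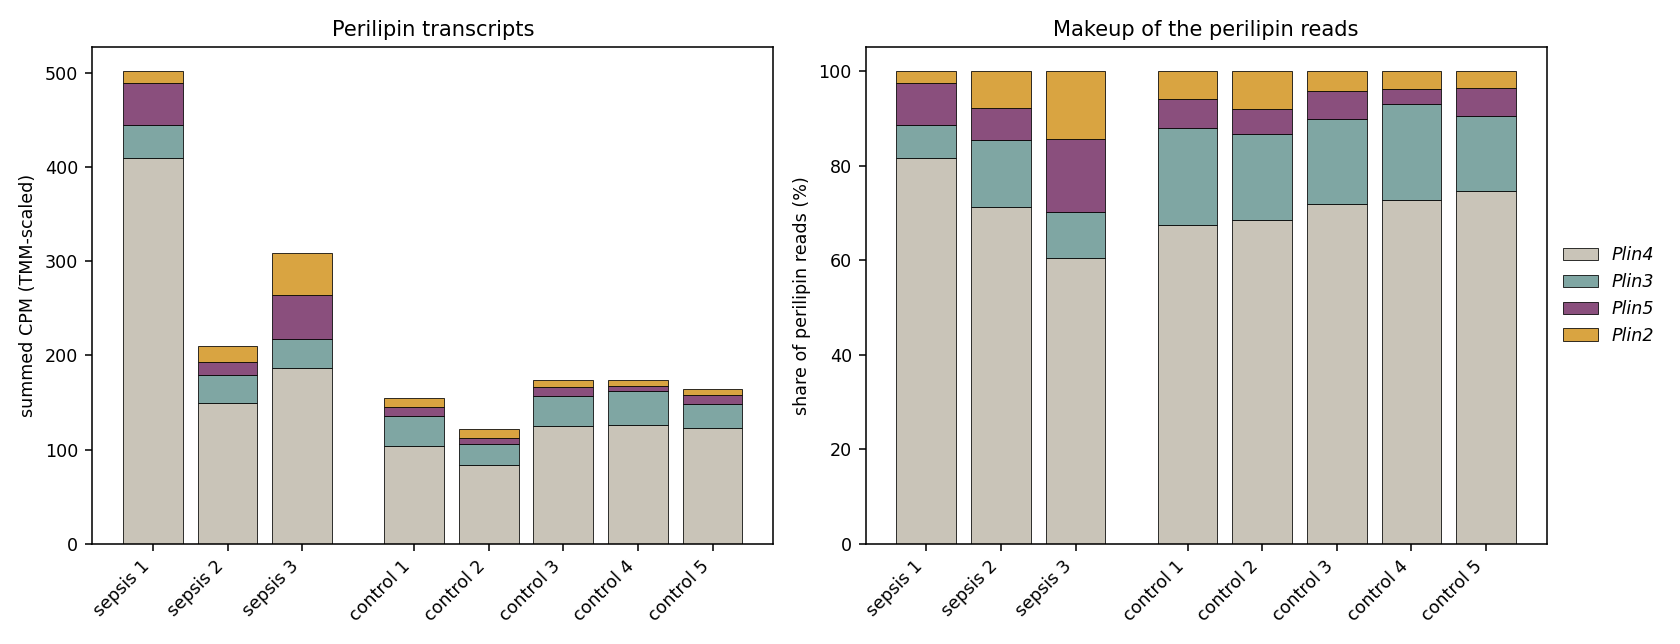
Perilipin transcripts in each library as stacked bars, sepsis at the left of control; the left panel gives their summed level in CPM and the right panel each gene's percentage of the perilipin reads. The 3 septic sums lie between 209.7 and 502 CPM, above all controls, and septic replicate 1 is mostly Plin4 while replicate 3 carries the largest Plin2 and Plin5 shares.

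Angptl4 and Ucp3, known PPAR targets outside the droplet coat, both had higher averages in sepsis, but only Angptl4 passed the test. Angptl4 (ENSMUSG00000002289) encodes a secreted inhibitor of lipoprotein lipase, the enzyme that frees fatty acids from circulating triglyceride. Its 35, 24 and 123 reads in septic libraries and 2, 5, 6, 11 and 0 reads in controls correspond to 9.31, 5.04 and 28.1 CPM in sepsis and to 0.555, 1.57, 1.81, 3.98 and 0 CPM in controls. In control replicate 5, a count of 0 allows up to 3 reads, or 0.956 CPM, which covers counting error only. All septic libraries were above all controls, yet septic replicate 2 and control replicate 4 were close. The average was 14.1 ± 12.3 CPM in sepsis and 1.58 ± 1.53 CPM in controls (SD, n = 3 and n = 5), 9.16-fold higher at a log2 fold change of 3.19 (SE 0.77), with adjusted p = 0.00744 in edgeR's quasi-likelihood test. It was the largest change of the 10 genes and was exceeded by 57 of all genes tested. With 0 to 11 control reads, Angptl4 passed the expression filter only through its septic libraries, which limits what its rank can show. Without sepsis replicate 3 the log2 fold change was 2.20, and without control replicate 4 it was 3.81, both past the threshold. Markers of other cells that can express Angptl4 or enter inflamed muscle differed as well. Neutrophil markers were higher in sepsis in 4 of 4 tested among 11. These 4, S100a8, S100a9, Retnlg and Ngp, had 3, 2, 0 and 0 reads over all 5 controls together. With so few control reads, only high septic counts could make them testable, so 4 of 4 cannot show how common a rise was. All 11 markers summed to 69.7 to 154 CPM in sepsis and 0.903 to 4.14 CPM in controls. Of 9 endothelial markers, 5 were higher and 1 lower, with sums of 185 to 290.2 CPM in sepsis and 179 to 188 CPM in controls. All 8 markers of fibro-adipogenic progenitors, the connective tissue cells of muscle, were lower, with sums of 471 to 614 CPM in sepsis and 1482 to 2092 CPM in controls. The part of these cells in the Angptl4 difference was not tested.

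Ucp3 (ENSMUSG00000032942) encodes the uncoupling protein of skeletal muscle mitochondria, whose transcript is known to follow fatty acid supply. It stood at 113, 30.9 and 147 CPM in sepsis and at 37.5, 26.1, 72.0, 95.1 and 25.2 CPM in controls. Septic replicate 2 lay among the lower controls, and controls 3 and 4 approached septic replicate 1. The log2 fold change was 0.92 (SE 0.62) on averages of 96.9 ± 59.7 CPM in sepsis and 51.2 ± 31.1 CPM in controls (SD, n = 3 and n = 5), with adjusted p = 0.256 in edgeR's quasi-likelihood test. Leaving out 1 library at a time gave values between 0.48, without sepsis replicate 3, and 1.36, without sepsis replicate 2, with adjusted p between 0.0858 and 0.654.

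**Figure D4:**
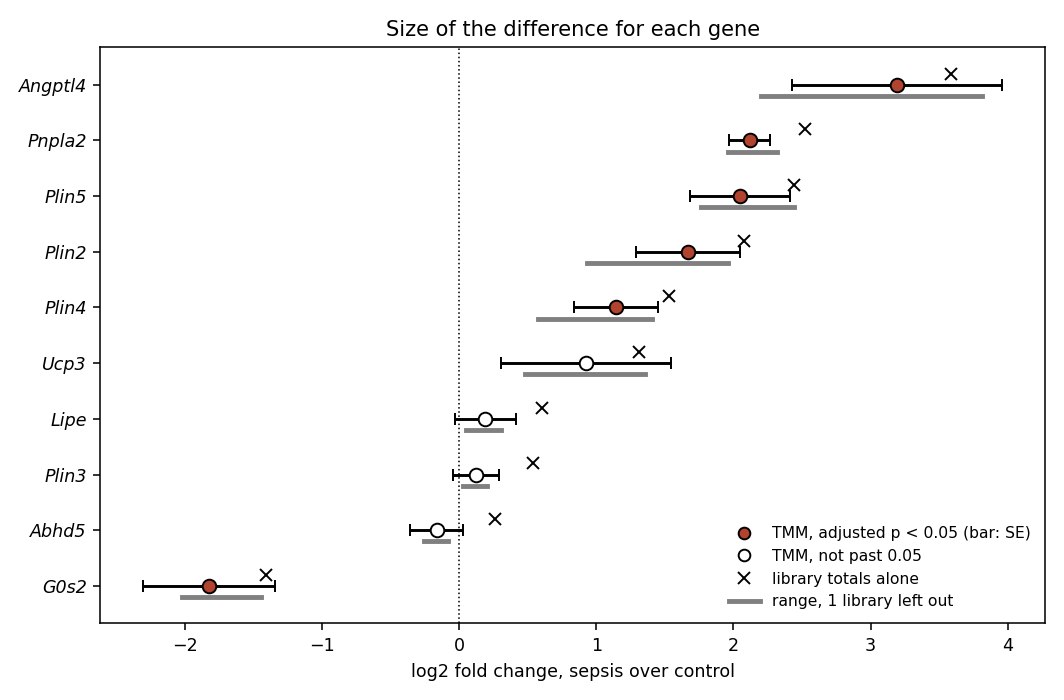
Log2 fold change of sepsis over control for each gene, from edgeR with TMM scaling (circles, filled where adjusted p was under 0.05, with the SE as a bar), with library totals alone (crosses) and as the range with 1 library left out (grey lines). Angptl4 is highest at 3.19 and G0s2 lowest at -1.82, and library totals alone move every gene to the right, taking Abhd5 across 0.

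The septic libraries did not rank alike across the genes. In TMM-scaled CPM, septic replicate 3 was the highest of the 3 for 6 genes, Pnpla2, Lipe, Plin2, Plin5, Angptl4 and Ucp3. Replicate 2 was the lowest for 7, Pnpla2, Lipe, Plin3, Plin4, Plin5, Angptl4 and Ucp3. Its TMM factor was the largest, at 1.30 against 1.13 and 1.17 in replicates 1 and 3, which lowers its CPM. Close ranks, such as those of Lipe and Plin3, therefore depend on the scaling. Ordered by mean CPM, septic muscle ran Pnpla2, Plin4, Ucp3, Plin5, Plin3, Plin2, Abhd5, Lipe, Angptl4, G0s2, and only Plin4 over Ucp3 and Angptl4 over G0s2 were neighbours whose ranges over libraries did not overlap. In controls the order was Pnpla2, Plin4, Ucp3, Plin3, Abhd5, Lipe, G0s2, Plin5, Plin2, Angptl4, where only Plin2 over Angptl4 were so separated. Plin5 thus stood at rank 4 in septic muscle and rank 8 in control muscle, and G0s2 at rank 10 in septic muscle and rank 7 in control muscle.

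The genes around these 10 were counted in 5 lists of the surrounding pathways, to be read against 25.2% of all genes tested higher and 25.2% lower. Of 23 lipid droplet and lipolysis partners tested among 26, 6 were higher in sepsis, 6 lower and 11 did not pass, with a median log2 fold change of 0.09, so both counts are at the background. The 3 with the smallest p were Fitm1, an endoplasmic reticulum protein of droplet formation in muscle, Abhd6, a monoacylglycerol lipase, and Spg20 (also Spart), which encodes the droplet adaptor spartin. Fitm1 averaged 23.1 ± 6.53 CPM in sepsis and 178 ± 17.4 CPM in controls (SD, n = 3 and n = 5), 7.69-fold lower. Abhd6 averaged 47.6 ± 19.1 CPM in sepsis and 8.05 ± 1.07 CPM in controls, 5.87-fold higher, and Spg20 was 2.84-fold higher. The other higher genes were Rab18, Vcp, Atg2a and Pnpla8, and the other lower genes were Fitm2, Bscl2, Acsl1, Acsl3 and Spast. Mgll, the gene of the monoacylglycerol lipase that ends the pathway, had 36.7, 35.5 and 66.4 CPM in sepsis and 48.0 to 55.7 CPM in controls, with adjusted p = 0.586 in edgeR's test.

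In the hormone control of lipolysis, falls outnumbered rises. Of 20 genes tested among 23, 2 were higher, 9 lower and 9 did not pass, with a median of -0.32. Ghr, the growth hormone receptor gene, was 3.44-fold lower, at 17.7 ± 1.22 CPM in sepsis and 60.8 ± 6.63 CPM in controls. Pde4a, which encodes a phosphodiesterase that breaks down cyclic AMP, was 10.1-fold lower, at 4.79, 12.2 and 5.02 CPM in sepsis and 68.3 to 82.5 CPM in controls. Prkaca, the catalytic subunit gene of the cyclic AMP-dependent kinase that phosphorylates hormone-sensitive lipase and perilipins, was 2.98-fold lower. Adora1, Prkar2a, Prkg1, Adcy9, Nr3c1 and Gnas were the other lower genes, and the insulin pathway genes Insr and Irs2 were the 2 higher ones.

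The PPAR receptor genes themselves did not pass the test. Ppara had 48.4, 15.1 and 11.9 CPM in sepsis and 9.73 to 27.5 CPM in controls, with a log2 fold change of 0.62 and adjusted p = 0.330 in edgeR's test. For Ppard the log2 fold change was -0.09 with adjusted p = 0.753, and for Pparg 0.39 with adjusted p = 0.334. Their partner gene Rxrg, an RXR form prominent in muscle, was 9.20-fold lower, at 5.70 ± 2.92 CPM in sepsis and 51.7 ± 3.09 CPM in controls (SD, n = 3 and n = 5), while Rxra had a log2 fold change of -0.02 with adjusted p = 0.907. Over the list of 20 receptors, partners and coregulators, all tested, 4 were higher, Fabp3, Fabp4, Ep300 and Foxo1, 4 were lower, among them Rxrg, Ppargc1b and Ncoa1, and 12 did not pass, with a median of 0.04. Both counts were unstable: 1 gene was higher without sepsis replicate 3 and 2 without control replicate 1, and 2 were lower without any 1 of control replicates 2, 3 and 5 or sepsis replicates 1 and 3.

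Other PPAR target genes split. Of 25 tested among 30, 9 were higher, 6 lower and 10 did not pass, with a median of 0.27, and without sepsis replicate 3 the higher genes numbered 5. Acadl, a mitochondrial acyl-CoA dehydrogenase gene, was 3.14-fold higher, at 459.9, 315 and 547 CPM in sepsis and 132 to 157 CPM in controls. Acaa2, the mitochondrial thiolase that ends each round of fatty acid oxidation, was 2.79-fold lower. Acot2, a mitochondrial acyl-CoA thioesterase gene, was highest in septic replicate 3, at 275, 105 and 871 CPM in sepsis and 32.2 to 56.9 CPM in controls. Pdk4, Cd36, Ucp2, Fabp3, Mlycd and Acadvl were among the other higher genes, and Acadm, Decr1, Acsl1, Slc22a5 and Cpt1b were lower.

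In the lipoprotein lipase system, on which ANGPTL4 acts, 11 of 16 genes were tested, of which 2 were higher, 5 lower and 4 did not pass, with a median of -0.94. The lipase gene Lpl had 529, 342 and 314 CPM in sepsis and 451 to 599 CPM in controls, with a log2 fold change of -0.36 and adjusted p = 0.0844 in edgeR's test. Furin, a protease that cleaves the lipase, and Gpihbp1, which carries it to the capillary wall, were the higher genes. Angptl2, Angptl1, Pcsk6 and Vldlr were among the lower ones. When libraries were scaled by their totals alone, the lists moved towards sepsis: droplet partners gave 10 higher and 1 lower, hormone control 4 and 7, PPAR partners 9 and 2, PPAR targets 16 and 2, and the lipoprotein lipase system 2 and 3. Several genes stand in more than 1 list, among them Fabp3, Lpl and Acsl1.

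**Figure D5:**
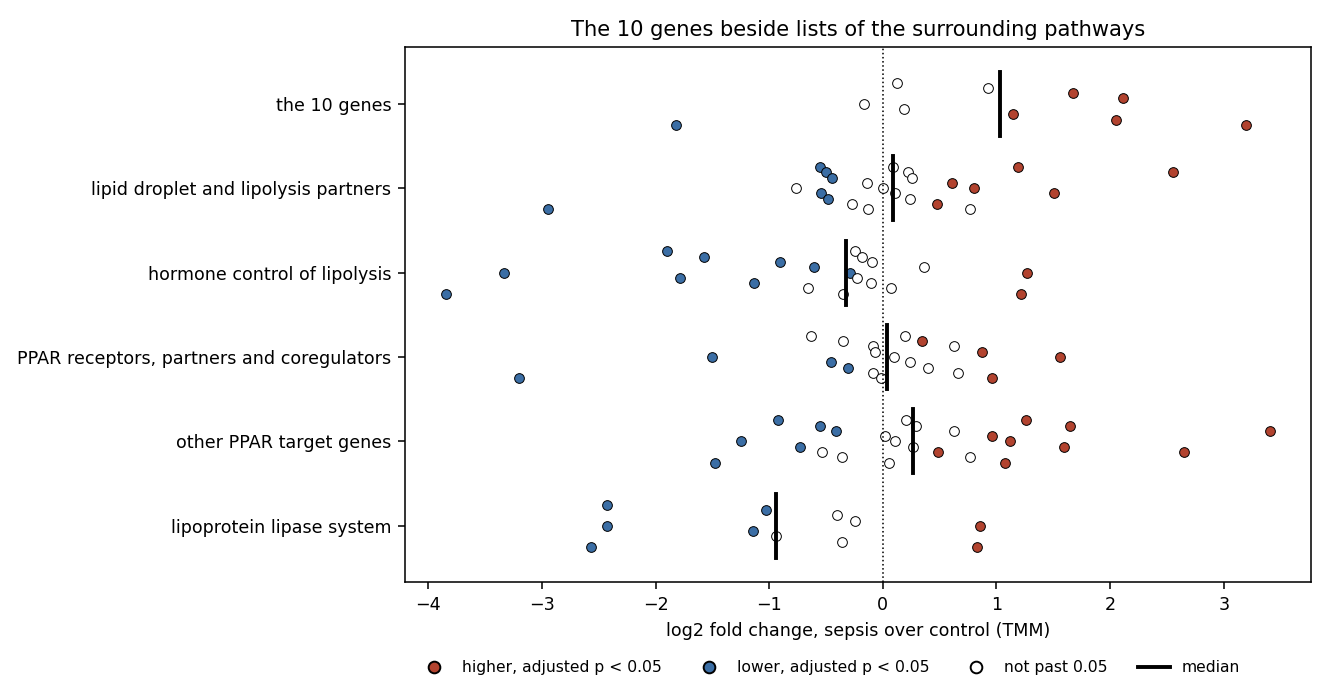
Log2 fold change of sepsis over control for the 10 genes and for the tested genes of each pathway list, 1 point per gene, red where higher and blue where lower at adjusted p under 0.05 and open otherwise, with the median as a black bar. The median lies at 1.03 for the 10 genes and between -0.94 and 0.27 for the lists, and every list holds genes on both sides of 0.

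By Pearson correlation of log2 CPM over the 8 libraries, the genes whose pattern was most like that of Pnpla2 were Psmd1, a proteasome subunit gene (r = 0.997), Ubr4, a ubiquitin ligase gene (r = 0.996), and Ddx21, an RNA helicase gene (r = 0.996). Within the pathway lists, those most like it included Acadl (r = 0.995) and Furin (r = 0.967). Ucp3 was most like Bicral (r = 0.978), Ilf2 (r = 0.971) and Sgk1, a kinase gene induced by glucocorticoids (r = 0.956), none of which passed the test, and within the lists most like Foxo1 (r = 0.908), Mlycd (r = 0.837) and Ncor1 (r = 0.830). These are descriptions over libraries that fall into 2 groups, septic and control, and no p is given.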

How the data were processed

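Per the labels' protocols, 25 ng of column-purified total RNA entered a QuantSeq 3′ mRNA library kit. The authors deposited unnormalized counts of reads per gene, and no other values were used. The genome build was GRCm39 per the submitters' processing notes; the aligner, counter, annotation and strand setting are not given in the sources used here. Every count column matched a sample's labels, and all 10 gene identifiers matched their symbol in the reference table.

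Counts were tested with edgeR 4.0.16 in R 4.3.3 over all 8 libraries with no covariate. Genes were kept by the expression filter (minimum count 10, minimum total 15), libraries were scaled by TMM, and p-values of the robust quasi-likelihood test were adjusted by Benjamini-Hochberg, with a threshold of 0.05. The SE is the absolute log2 fold change divided by the square root of F. CPM uses TMM-scaled library sizes. Correlations use log2 CPM with a prior count of 2. Ratios were tested with SciPy 1.17.1, whose two-sided p is double the smaller tail. Alternatives were other scalings, no filter, DESeq2 1.42.0, voom with quality weights in limma 3.58.1, a replicate block, 1 library left out in turn and, for the ratios, 2 added to each count in place of 0.5. The edgeR fit was also run on simulated counts in which only a small part of the genes was changed. As 50.4% of genes tested passed in these data, that simulation does not check the scaling used here. No batch is named in the labels.

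Promoters come from RefSeq on GRCm38.p6, and gene overlaps from an annotation of GRCm38; neither is the build of the counts, so no coordinate was joined to them. Promoter entries were matched by symbol, and Angptl4 has none in the table used.

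The 10 genes and the lists were chosen with earlier results of these data known. From each list the 3 tested genes with the smallest p are named, plus those needed to say which members passed. Mgll, Ppara, Ppard, Pparg, Rxra, Lpl and Acot2 were described for their place in the pathway or their spread, with their values known. Some members of the lists are counted but not reported by name here.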

Additional observations from a re-analysis of the deposited data

Results flagged for a closer look

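In 24 groups of 5 control libraries, 3 held a library far from the other 4, where chance gives about 1 in 20. Plin5 made up 3.32% of the perilipin reads in control replicate 4, against 5.41% to 6.10% in the other controls. The macrophage markers summed to 211 CPM in control replicate 1, against 81.4 to 100.1 CPM in the others. In the same library the markers of fibro-adipogenic progenitors summed to 2092 CPM, against 1482 to 1597 CPM. Groups of 3 septic libraries were not examined this way.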

How the results depend on the processing

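Of 443 values recomputed under an alternative, 380 were classed as the same. For fold changes and ratios, the same meant an unchanged direction and side of the threshold. For shares it meant a move smaller than the spread. For counts of genes it meant only within a fixed fold of the main count, so that 1788 against 2475 was classed as the same. Scaling by library totals alone gave 4256 higher and 1387 lower genes, against 2475 and 2468 with TMM, moved Lipe to 0.60 and Plin3 to 0.54, both past the threshold, and reversed Abhd5 to 0.26. The number of the 10 genes lower in sepsis became 0 with voom quality weights (G0s2 at -1.52) and without sepsis replicate 3. With 1 library left out, higher genes numbered 2207 to 2533 and lower genes 2221 to 2506, 5 of the 10 stayed higher and 0 to 1 lower, and G0s2 ranged between -2.02 and -1.45. The ratio to Pnpla2 then differed by -3.92 to -3.40 for G0s2, -2.53 to -2.08 for Abhd5 and -2.03 to -1.73 for Lipe, but with 7 libraries the test cannot go below 0.0571 without a control or 0.0952 without a septic library. The difference in Plin4 share ran between -5.21 and 5.35 points. Same-numbered septic and control libraries did not deviate together, with correlations of -0.12, 0.04 and -0.02. Differently numbered libraries gave correlations between -0.07 and 0.13. With so few libraries, this check cannot decide whether the numbers pair them. A replicate block over the 6 libraries with shared numbers gave 1788 higher and 1771 lower genes, Ucp3 at 0.99 with adjusted p = 0.0135, and Abhd5 at 0.073. Without the block, an alternative chosen after seeing the data, those 6 libraries gave 2010 and 1894 genes and Abhd5 at 0.070. Ucp3 was then at 1.10 with adjusted p = 0.183 in edgeR's test, so in these libraries it passed only with the block. Apart from the smaller number of libraries, the cause was not tested. With 14 to 18 septic G0s2 reads per library and 0 to 11 control Angptl4 reads, counting error limits these genes most.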
